A study of Mus musculus with 6 samples.

Results

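The genes described here are 38 genes of the cell cycle and DNA replication, chosen by name from the 45706 genes of the count table. They were set in groups by the role each gene is known for, with 11 genes of S phase, 15 genes of mitosis, 9 genes of G1 (cyclins, their kinases and E2f1) and 3 inhibitors of the cyclin-dependent kinases. RNA was sequenced from 3T3-L1 cells, a mouse embryonic fibroblast line that turns into fat cells under hormonal treatment, at day 7 of differentiation. The 3 scrambled control samples (genotype WT in the labels) carried a non-targeting short hairpin RNA (shRNA), and the 3 RBMS1 knockdown samples (RBMS1KD) carried an shRNA against Rbms1, which encodes an RNA-binding protein. The study describes both cultures as stably carrying their shRNA, and gives lentiviral transduction and puromycin selection for the knockdown cells. All 6 samples had received the same adipogenic cocktail of IBMX, insulin, dexamethasone and rosiglitazone. The study asked how the loss of RBMS1 alters gene expression in the differentiated adipocytes. The labels name no further hairpin and no rescue, so an effect of RBMS1 loss and a difference between the cultures selected cannot be told apart.

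A dividing cell passes through G1, S phase, G2 and mitosis. In G1, D-type cyclins with Cdk4 or Cdk6 and then cyclin E with Cdk2 phosphorylate the retinoblastoma proteins, which releases E2F factors to switch on the genes of S phase, and the inhibitors p21 (Cdkn1a), p27 (Cdkn1b) and p18 (Cdkn2c) hold these kinases back. Mitotic genes are kept silent in resting cells by the DREAM complex and are switched on late in the cycle with the help of Foxm1. Growth-arrested 3T3-L1 cells re-enter the cycle soon after the cocktail is added, a phase known as mitotic clonal expansion, and leave it again as they become adipocytes, so a culture at day 7 is largely past division.

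Levels are given as CPM, counts scaled to the size of each library, after TMM normalization, which sets the libraries on a common scale. Total counts ranged from 3142695 to 11073098. Scrambled control replicate 2 stood apart, with the fewest counts and with 43.0% of them in genes derived from ribosomal RNA, against 8.12% to 17.8% in the other 5 libraries. The limit that a count of 0 allows, taken as 3 counts, was 0.220 CPM in the deepest library and 1.49 CPM in scrambled control replicate 2. Rbms1 itself was at 113, 102 and 99.6 CPM in the controls and at 49.2, 61.4 and 84.0 CPM in the knockdown samples. The groups did not overlap, and the log2 fold change was -0.69 ± 0.20 (SE), short of the threshold of 0.1 (edgeR quasi-likelihood test, Benjamini-Hochberg adjusted p = 0.185). Without knockdown replicate 3, the highest of the 3, it was -0.92 (edgeR, adjusted p = 0.0708). All 12 adipocyte markers passed the filter on low counts, with summed levels of 23125, 24293 and 26006 CPM in the controls and 21778, 12357 and 14877 CPM in the knockdown samples. Lpl contributed 11958 to 14512 CPM of the control sums and 5350 to 10210 CPM of the knockdown sums. Fold changes were below 0 for 11 of the 12, and edgeR called 1, Retn on chromosome 8 (log2 fold change -1.67, adjusted p = 0.0967), where 1.22% of all genes tested were called. With chromosome medians removed Retn was at -1.28 (edgeR, adjusted p = 0.230). The log2 fold change of Lpl, also on chromosome 8, went from -0.87 to -0.48 in that fit (edgeR, adjusted p = 0.772). That of Fabp4, within the first 50 Mb of chromosome 3, turned from -0.46 to 0.17. DESeq2 called 3 of the 12, Lpl and Retn as lower (adjusted p = 0.0323 and 0.000207) and Cd36 as higher (adjusted p = 0.0156), beside 3.20% of all its genes. Collagens and other genes of preadipocytes and fibroblasts were present in all samples as well, at 4031 to 8985 CPM in sum. Macrophage and endothelial markers summed to at most 3.39 and 1.99 CPM, and Ptprc, Adgre1 and Kdr had no count.

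No cell cycle gene passed the test. Of the 38 genes, 36 passed the filter, and 0 of them had an adjusted p of 0.1 or less in edgeR's quasi-likelihood test, where 1.22% of all 11440 genes tested did. DESeq2 and limma-voom also called 0, beside 3.20% and 1.01% of all their genes. At an unadjusted p under 0.05, edgeR had 1 gene (Ccna2), DESeq2 had 3 and limma-voom had 0, where the shares over all genes were 12.4%, 10.2% and 11.7%. The edgeR adjusted p-values of the 36 genes ran from 0.356 to 0.997. Fitted log2 fold changes were below 0 for 25 genes and above 0 for 11, with a median of -0.14, beside a median of 0.0044 over all genes tested. Only Ccnd2 and Cdk4 had 3 knockdown samples on one side of the 3 controls, where 18.5% of all genes tested did. Both were higher and 0 genes were lower, beside 8.96% and 9.55% of all genes tested. Ccnb2 and Aurkb did not pass the filter and were at 0.496 to 3.37 CPM and 1.15 to 3.05 CPM in the 6 samples.

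**Figure D1:**
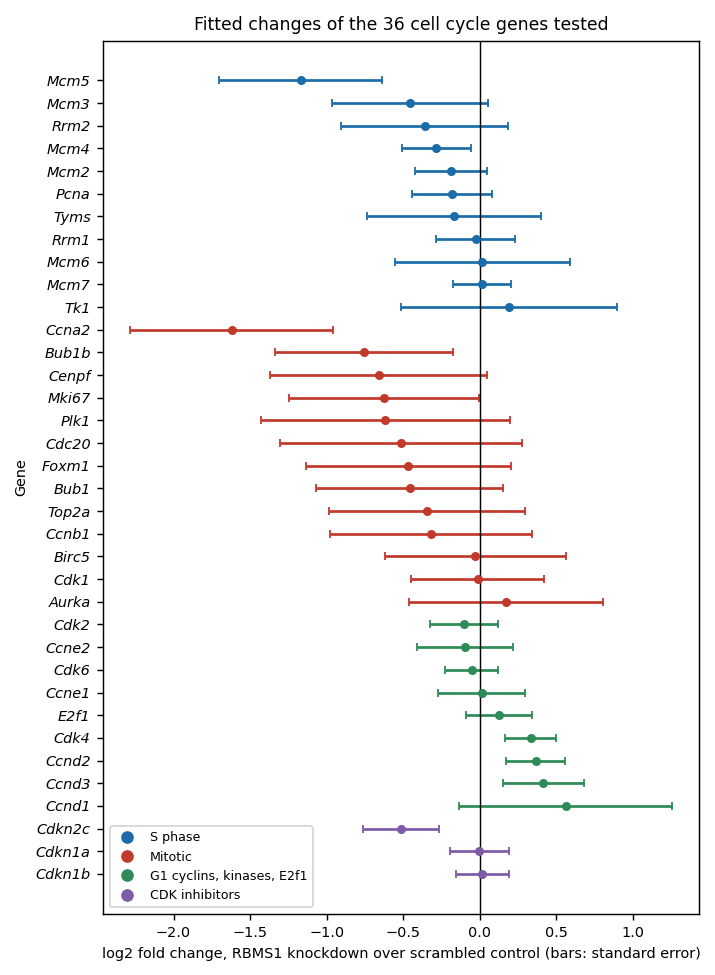
Fitted log2 fold change of RBMS1 knockdown over scrambled control for the 36 cell cycle genes tested, with the gene on the vertical axis, points for the estimate, bars for its standard error and colours for the 4 groups of genes. Estimates ran from -1.62 for Ccna2 to 0.56 for Ccnd1, and the bars of the mitotic genes are wide.

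The S phase genes encode the machinery that copies DNA and supplies its building blocks. All 11 passed the filter, 8 had a fold change below 0 and 3 above, and the median log2 fold change was -0.18. It turned to 0.14 when libraries were scaled by their sizes alone, without TMM, which moved the median of all genes to 0.37. Their summed level was 214, 122 and 146 CPM in the controls and 105, 134 and 193 CPM in the knockdown samples. The means were 161 ± 47.8 CPM and 144 ± 44.6 CPM (SD, n = 3 each), so the group means differed by less than the spread within either group, where the highest sample exceeded the lowest 1.76-fold and 1.83-fold.

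Mcm5 (chr8:75109569-75128439 in GRCm38), a subunit of the MCM2-7 helicase that unwinds DNA ahead of the fork, had the largest fitted change of the 11 genes. It was at 14.3, 3.47 and 5.51 CPM in the controls and at 2.44, 2.45 and 5.65 CPM in the knockdown samples. Scrambled control replicate 1 lay far above the other 5, and knockdown replicate 3 was as high as scrambled control replicate 3. The log2 fold change was -1.17 ± 0.53 (SE; edgeR, adjusted p = 0.413), and it ranged from -1.70 to -0.37 as single samples were left out. Mcm5 lies on chromosome 8, where the median over 624 tested genes was -0.38, and with chromosome medians removed its log2 fold change was -0.80. For that fit the median deviation of each chromosome's genes was taken out of each sample, for chromosomes with at least 50 tested genes, and chromosome 3 was split at 50 Mb with a median for each side. Mcm3, of the same helicase, was at 18.4, 5.46 and 5.51 CPM in the controls and 4.60, 5.96 and 11.3 CPM in the knockdown samples. Its 2 high samples were again scrambled control replicate 1 and knockdown replicate 3, and its log2 fold change of -0.45 ± 0.51 turned to 0.43 without that control. Mcm7, another subunit, had the smallest standard error of the 11 genes and was at 23.9, 25.3 and 19.96 CPM against 19.8, 24.5 and 25.3 CPM. Its log2 fold change was 0.02 ± 0.19. Mcm2, Mcm4 and Mcm6 had log2 fold changes of -0.19, -0.28 and 0.02, and the sign of each turned under an alternative. Mcm6 ran from 2.59 to 19.9 CPM within the knockdown group, and its log2 fold change had an SE of 0.57 and lay between -0.80 and 0.48 over the alternatives. Mcm7 shares 321 exonic bases with Ap4m1 on the opposite strand.

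Pcna, the sliding clamp of the DNA polymerases, was at 36.4, 18.4 and 26.3 CPM in the controls and 19.3, 24.3 and 28.6 CPM in the knockdown samples. Rrm1, the large subunit of ribonucleotide reductase, was at 34.3, 23.8 and 30.5 CPM against 21.1, 25.2 and 40.8 CPM. Rrm2, the small subunit whose level follows S phase, was at 9.62, 3.47 and 5.85 CPM against 2.44, 3.04 and 9.54 CPM. The groups overlapped for each of these, and the log2 fold changes were -0.18 ± 0.26, -0.03 ± 0.26 and -0.36 ± 0.55 (SE). Rrm2 and the nucleotide enzymes Tyms and Tk1 were low, and Tk1 came from 2 and 7 counts in scrambled control replicates 2 and 3. Tyms and Tk1 had log2 fold changes of -0.17 and 0.19, with no stable direction, since they ran from -0.63 to 0.67 and from -0.52 to 1.66 over the alternatives. Pcna has a processed pseudogene, Pcna-ps2, that held 14 to 54 counts per library, so reads could have been split between the copies.

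The same samples were high for nearly every S phase gene. Scrambled control replicate 1 was the highest control for 10 of 11 genes, and knockdown replicate 3 was the highest knockdown sample for 11 of 11. Over all genes tested these shares were 35.0% and 33.5%. At the other end, scrambled control replicate 2 was the lowest control for 10 and knockdown replicate 1 the lowest knockdown sample for 10 of the 11 genes. The shares over all genes tested were 36.4% and 37.7% here. These samples were singled out after their values had been seen. Scrambled control replicate 2 was also the shallowest library and knockdown replicate 3 the deepest, with totals of 3142695 and 11073098, while scrambled control replicates 1 and 3 had near-equal totals of 5985167 and 5978404. Rbms1 itself rose in the same order as the S phase sums in knockdown replicates 1 to 3, at 49.2, 61.4 and 84.0 CPM. Among the controls it was highest in scrambled control replicate 1, at 113 CPM. Scrambled control replicates 2 and 3 had 102 and 99.6 CPM, the reverse of the order of their S phase sums. The parts of depth and of the Rbms1 level in the pattern were not tested.

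**Figure D2:**
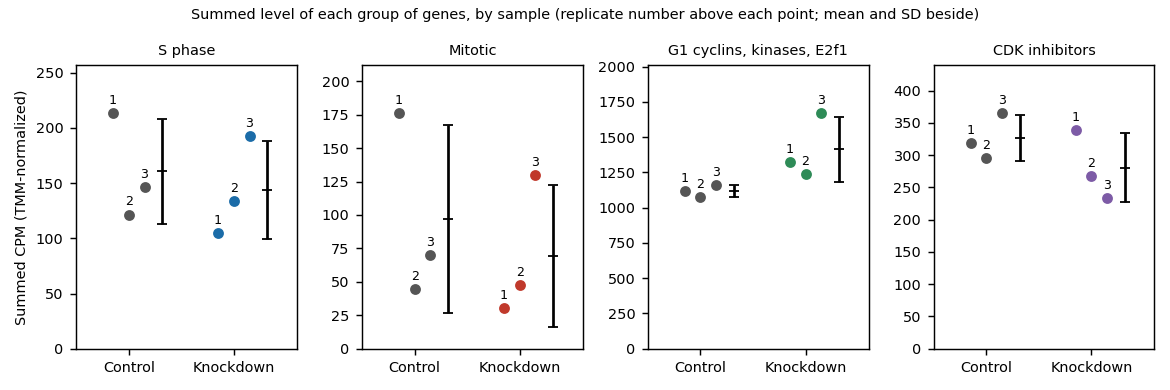
Summed TMM-normalized CPM (vertical axis, starting at 0) of the S phase, mitotic, G1 and inhibitor genes in each of the 6 samples, with replicate numbers above the points and mean and SD beside them. For S phase and mitotic genes, scrambled control replicate 1 and knockdown replicate 3 sit above the other 2 samples of their groups.

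E2F factors bind short words in the promoters of S phase genes, and the stretches before the starts of Mcm5 and Mcm6 are shown because they hold the most such words among these genes. The sequences are the 200 bases before the RefSeq start in GRCm38.p6, 5' to 3' on the gene's strand, at chr8:75109309-75109508 (plus strand) and chr1:128359706-128359905 (minus strand). Capitals mark the E2F-type words TTTCGCGC, TTTGGCGC, TTTCCCGC and TTTGCCGC on either strand, and words on opposite strands overlap in both genes. Both RefSeq starts lie upstream of the start of the gene in the GENCODE annotation.
Mcm5: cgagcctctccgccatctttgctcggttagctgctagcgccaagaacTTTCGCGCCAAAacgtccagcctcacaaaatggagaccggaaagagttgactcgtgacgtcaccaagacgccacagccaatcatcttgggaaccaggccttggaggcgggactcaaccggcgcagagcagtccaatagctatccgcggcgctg
Mcm6: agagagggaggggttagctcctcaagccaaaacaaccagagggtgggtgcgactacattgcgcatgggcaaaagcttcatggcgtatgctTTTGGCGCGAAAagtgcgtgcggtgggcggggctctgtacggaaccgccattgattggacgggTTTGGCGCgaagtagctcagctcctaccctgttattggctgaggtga
Windows of 300 bases, 250 before and 50 after the start, were given for 31 of the 38 genes. An E2F-type word stood in 4 of the 11 windows of S phase genes (those of Mcm3, Mcm5, Mcm6 and 1 of the windows of Mcm7), in 1 of 12 windows of mitotic genes (Cdk1), in 1 of 7 windows of G1 genes (Cdk2) and in 2.26% of all 32851 windows, or 3.97% of the windows of genes tested.

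The mitotic genes cover the cyclins, kinases and spindle proteins of cell division. Of 15 genes, 13 passed the filter, 12 of these had a fold change below 0 and 1 above, and the median log2 fold change was -0.46. Their summed level was 176, 44.7 and 69.9 CPM in the controls and 30.3, 47.9 and 130 CPM in the knockdown samples. The means were 97.0 ± 70.0 CPM and 69.4 ± 53.2 CPM (SD, n = 3 each), a ratio of 0.716, and the groups overlapped. Within the groups the highest sample exceeded the lowest 3.95-fold and 4.29-fold, so the mitotic genes varied more between replicates than the S phase genes did. The median standard error of their log2 fold changes was 0.64, against 0.23 over all genes tested. In RNA from a whole culture, fewer dividing cells and less of these transcripts per dividing cell cannot be told apart.

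Ccna2 (chr3:36564865-36572150), cyclin A2, which drives S phase and entry into mitosis, had the largest fitted change of the 36 genes and the smallest p. It was at 19.9, 4.96 and 4.65 CPM in the controls and at 1.44, 2.10 and 6.02 CPM in the knockdown samples. Knockdown replicate 3 lay above both of the lower controls. The log2 fold change was -1.62 ± 0.66 (SE; edgeR, unadjusted p = 0.0358, adjusted p = 0.356), and it ranged from -2.49 without knockdown replicate 3 to -0.53 without scrambled control replicate 1. Ccna2 lies within the first 50 Mb of chromosome 3, where the median over 90 tested genes was -0.63, and with chromosome medians removed its log2 fold change was -1.03 (edgeR, adjusted p = 0.681). It also shares 510 exonic bases with Exosc9 on the opposite strand, and the strand setting of the counting is not given in the sources used here.

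Mki67 (chr7:135689784-135716361), whose protein Ki-67 marks dividing cells, was at 40.4, 8.93 and 16.9 CPM in the controls and at 5.32, 10.2 and 27.9 CPM in the knockdown samples. Top2a, the topoisomerase that untangles sister chromatids, was at 28.5, 10.4 and 14.3 CPM against 3.16, 10.4 and 28.6 CPM. For both genes, a knockdown sample and a control sample were the highest pair and the groups overlapped throughout. Their log2 fold changes were -0.62 ± 0.62 and -0.34 ± 0.64 (edgeR, adjusted p = 0.740 and 0.875). Cdk1, the kinase that starts mitosis, was at 12.2, 4.96 and 6.02 CPM against 5.18, 5.73 and 12.5 CPM, with a log2 fold change of -0.01 ± 0.44. Its group means were 7.72 and 7.79 CPM.

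Bub1b, a kinase of the spindle checkpoint, was at 10.3, 4.47 and 4.82 CPM in the controls and 2.16, 1.75 and 7.63 CPM in the knockdown samples. Cenpf, a kinetochore protein, was at 11.2, 0.993 and 3.27 CPM against 1.58, 2.45 and 6.24 CPM. Bub1b had a log2 fold change of -0.76 ± 0.58 and stayed below 0 whichever sample was left out, from -1.76 to -0.23, whereas Cenpf went from -0.66 ± 0.71 to 0.55 without scrambled control replicate 1. The kinases Plk1 and Bub1, the ubiquitin ligase activator Cdc20, the transcription factor Foxm1 and the cyclin Ccnb1 had log2 fold changes between -0.62 and -0.32. None of these 5 kept its sign over the alternatives, which gave -1.90 to 0.46 for Plk1, -1.17 to 0.17 for Bub1, -1.73 to 0.58 for Cdc20, -1.58 to 0.42 for Foxm1 and -0.93 to 0.52 for Ccnb1. Birc5 (survivin) was at -0.03, between -0.68 and 0.44, and Aurka, a spindle pole kinase, was at 0.17, between -0.15 and 1.42. Ccnb1, Ccnb2, Aurka, Plk1 and Cdc20 had 1 count each in scrambled control replicate 2. Cenpf and Bub1 had 2 counts each in that library. All of these lie under the floor of 3 counts.

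Scrambled control replicate 1 was the highest control and knockdown replicate 3 the highest knockdown sample for all 15 mitotic genes, the 2 that missed the filter included. Both held together for 15.5% of all genes tested. Scrambled control replicate 1 exceeded the mean of the other 2 controls from 1.91-fold (Birc5) to 6.65-fold (Ccnb2), and knockdown replicate 3 exceeded the mean of the other 2 knockdown samples from 1.41-fold (Ccnb2) to 5.21-fold (Plk1). Scrambled control replicate 2 and knockdown replicate 1 were each the lowest of their group for 12 of the 15, beside 36.4% and 37.7% of all genes tested. Knockdown replicate 1 was also the lowest of its group for the 9 preadipocyte and fibroblast markers that passed the filter (Cd34 was under the floor), and the list summed to 4031 CPM there against 8575 and 7938 CPM in the other 2 knockdown samples. Controls had 8985, 8225 and 8105 CPM of these markers, and their part in the mitotic levels was not tested.

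**Figure D3:**
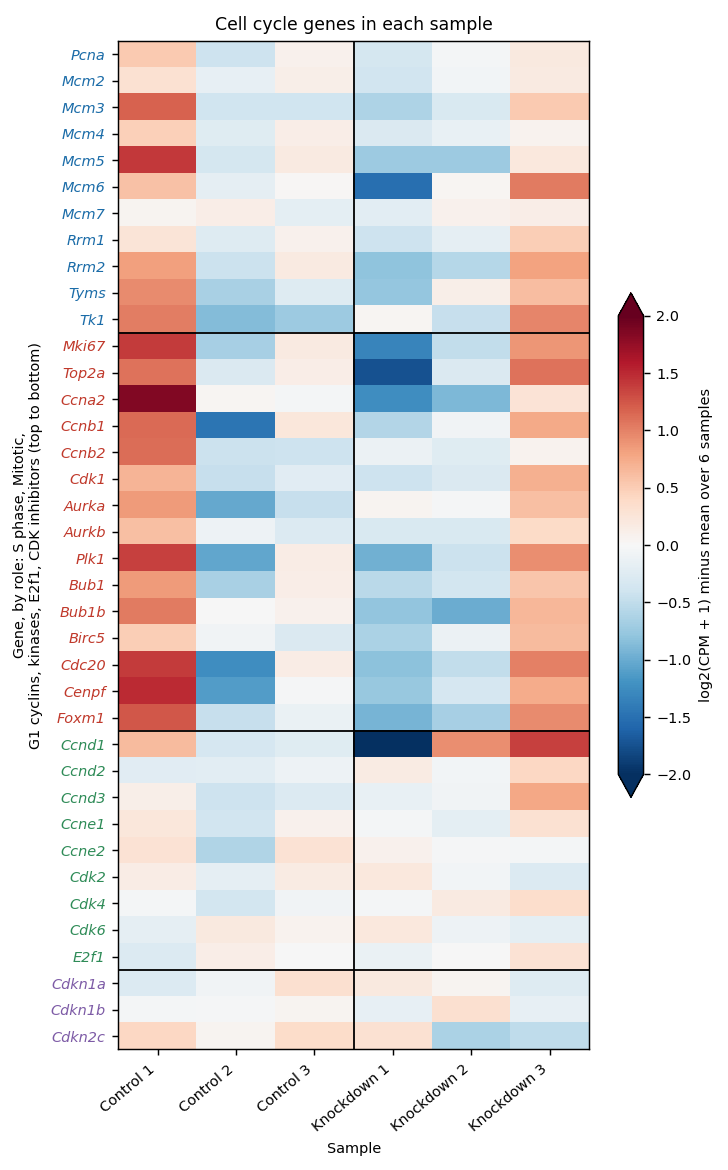
Each of the 38 genes (rows) in each of the 6 samples (columns), as the difference in log2(CPM + 1) from the gene's mean over all samples, with the groups of genes separated. Mitotic and most S phase rows are high in scrambled control replicate 1 and knockdown replicate 3, a pattern that the rows of Ccnd2, Cdk6 and the inhibitors do not share.

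The median fold change of the mitotic genes turned on which sample was in the fit. It was 0.44 without scrambled control replicate 1 and -1.44 without knockdown replicate 3. Leaving out scrambled control replicate 2 or 3 gave -0.71 and -0.73, and leaving out knockdown replicate 1 or 2 gave -0.12 and -0.19. For the S phase genes the median was 0.10 without scrambled control replicate 1 and -0.52 without knockdown replicate 3, and it lay between -0.38 and -0.03 in the other 4 fits. No S phase or mitotic gene had an adjusted p of 0.1 or less in these 6 edgeR fits, which called 0.179%, 0.101% and 0.271% of all genes without scrambled control replicate 1, 2 or 3 and 5.94%, 0.326% and 0.997% without knockdown replicate 1, 2 or 3.

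**Figure D4:**
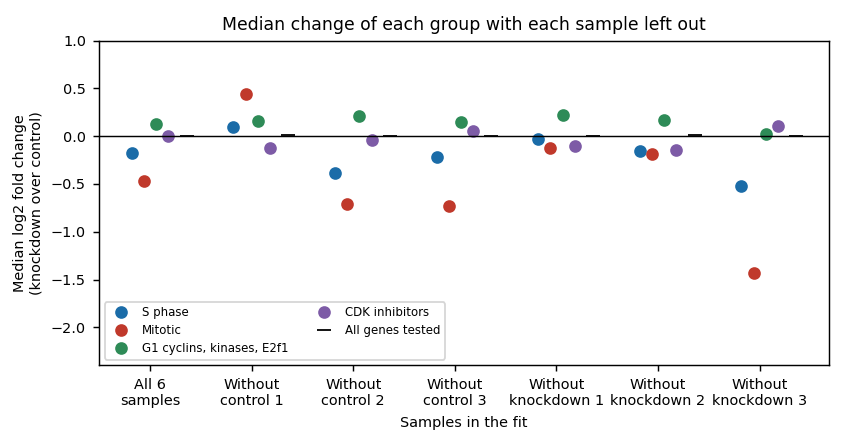
Median log2 fold change (vertical axis) of each group of cell cycle genes and of all genes tested, for the fit of all 6 samples and the 6 fits that lack 1 sample. The mitotic median moves from -1.44 without knockdown replicate 3 to 0.44 without scrambled control replicate 1, while the median of all genes stays near 0.

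Many mitotic promoters hold the cell cycle genes homology region, a TTTGAA word that the DREAM complex binds, a few turns of the helix from CCAAT words bound by NF-Y. The stretches before the starts of Mki67 and Top2a are shown, and each holds this word in 2 places. The stretch of Cdk1, not shown, does so as well. They are again the 200 bases before the RefSeq start in GRCm38.p6, at chr7:135716380-135716579 and chr11:99024190-99024389, both read 5' to 3' on the minus strand, with TTTGAA on either strand in capitals. The RefSeq start of Mki67 lies upstream of its GENCODE start, and that of Top2a coincides with it.
Mki67: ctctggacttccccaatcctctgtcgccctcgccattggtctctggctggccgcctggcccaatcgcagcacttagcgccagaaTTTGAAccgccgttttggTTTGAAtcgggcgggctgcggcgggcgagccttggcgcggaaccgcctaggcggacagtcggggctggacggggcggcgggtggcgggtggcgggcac
Top2a: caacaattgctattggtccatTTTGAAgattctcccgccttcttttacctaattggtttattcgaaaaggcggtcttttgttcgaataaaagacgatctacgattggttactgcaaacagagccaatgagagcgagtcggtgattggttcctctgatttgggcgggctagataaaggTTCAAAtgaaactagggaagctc
TTTGAA stood in 9 of the 12 windows of mitotic genes, in 1 of 11 windows of S phase genes (Mcm2), in 0 of the 7 windows of G1 genes and in 17.9% of all windows, or 11.6% of the windows of genes tested. CCAAT stood in 11 of 12 and 9 of 11 windows of mitotic and S phase genes and in 37.4% of all windows. Both strands were searched, and words of different kinds overlapped once in the windows of these genes. These counts describe letters in the windows and not binding. Among mitotic genes with a TTTGAA word, fitted log2 fold changes ran from -0.76 for Bub1b to 0.17 for Aurka. Birc5, Bub1 and Ccnb1, without one, had values of -0.03, -0.46 and -0.32.

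**Figure D5:**
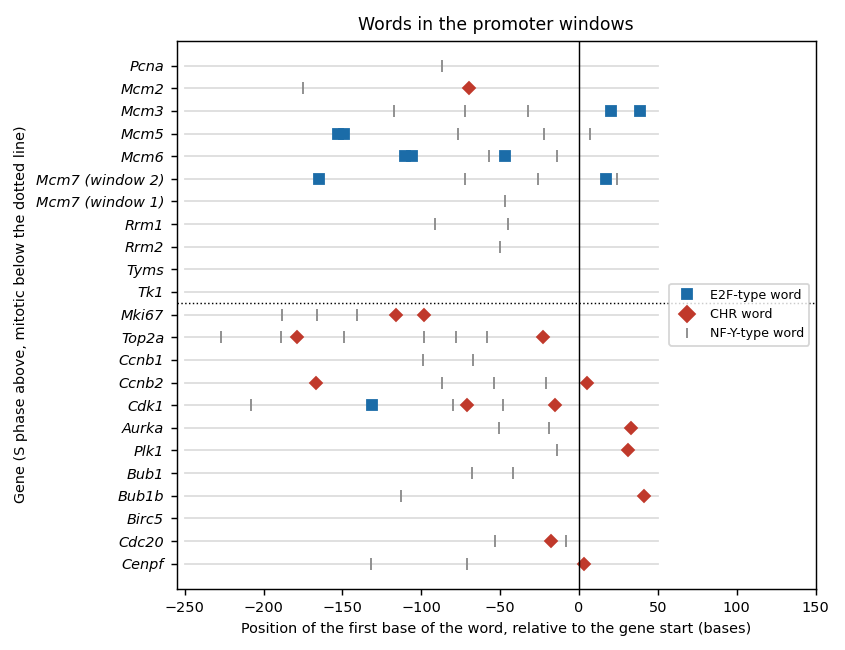
Position of E2F-type words, the TTTGAA word (CHR) and the CCAAT word (NF-Y type) in the promoter windows of the S phase genes (above the dotted line) and the mitotic genes (below it), in bases from the gene start at 0. E2F-type words stand in Mcm genes and Cdk1, and TTTGAA in 9 of 12 mitotic windows.

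The G1 genes carry the cell from rest towards S phase. All 9 passed the filter, with 6 fold changes above 0, 3 below and a median log2 fold change of 0.12, which turned to -0.03 with limma-voom. Their summed level was 1119, 1072.5 and 1161 CPM in the controls and 1323, 1242 and 1674 CPM in the knockdown samples. The sums did not overlap, and Ccnd2 contributed most of the counts in each. Scrambled control replicate 1 and knockdown replicate 3 were both the highest of their groups for 4 of the 9 genes, against 10 of 11 for S phase genes.

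Ccnd2 (chr6:127125162-127152193), a D-type cyclin, was at 801, 811 and 877 CPM in the controls and 1055, 905 and 1247 CPM in the knockdown samples. Every knockdown sample lay above every control, yet the difference did not pass (log2 fold change 0.37 ± 0.19 SE; edgeR, adjusted p = 0.479). It lay between 0.24 and 0.49 as single samples were left out and was 0.19 with chromosome medians removed. Cdk4 (chr10:127063534-127067920), a kinase partner of the D-type cyclins, was at 70.0, 55.6 and 68.6 CPM against 70.4, 82.4 and 92.3 CPM. The groups were apart by no more than the step from 70.0 to 70.4 CPM, and the log2 fold change was 0.33 ± 0.17 (edgeR, adjusted p = 0.458). Cdk4 shares 641 exonic bases with Tspan31 on the opposite strand. Cdk6, the other kinase partner, was at 63.3, 82.9 and 76.0 CPM against 84.1, 67.2 and 62.8 CPM, with overlapping groups and a log2 fold change of -0.05 ± 0.17.

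Ccnd1 (chr7:144929931-144939925), the D-type cyclin most responsive to growth factors, was at 65.7, 33.3 and 35.3 CPM in the controls and at 7.48, 81.5 and 110 CPM in the knockdown samples. Knockdown replicate 1 was the lowest of all 6 samples and the other 2 knockdown samples were the highest, and the log2 fold change was 0.56 ± 0.70 (edgeR, adjusted p = 0.798). Without knockdown replicate 1 it was 1.10 (edgeR, adjusted p = 0.0653), in a fit that called 5.94% of all genes, and its adjusted p over all alternatives ran from 0.0653 to 0.997. The fibroblast markers were also lowest in that sample, as given with the mitotic genes. Ccnd1 shares 1100 exonic bases with a gene on the opposite strand. Ccnd3, the third D-type cyclin, was at 72.1, 49.6 and 54.7 CPM against 59.7, 62.8 and 113 CPM, with a log2 fold change of 0.42 ± 0.26 (edgeR, adjusted p = 0.562). Knockdown replicate 3 alone stood above the controls. Over the alternatives the log2 fold change of Ccnd3 ran from 0.06 to 0.78. Exonic bases are shared with genes on the opposite strand by Ccnd3 (361 with Bysl), Ccne2 (609 with Ints8) and Ccnd2 (368 and 372 with antisense genes), and also by Cdk6 (368) and Cdkn1a (273), so their counts are uncertain in the same way. On the same strand, Foxm1 shares 144 exonic bases with Tex52 and 97 with Gm44596, and small RNA genes lie within exons of Top2a and Mcm7. The cyclin E genes Ccne1 and Ccne2, their kinase Cdk2 and the factor E2f1 were at 3.97 to 20.2 CPM, with log2 fold changes of 0.01, -0.09, -0.10 and 0.12, each of which turned its sign under an alternative.

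The 3 inhibitors showed no common direction, with a median log2 fold change of -0.0022. Cdkn2c (p18, chr4:109660876-109667189), an inhibitor of Cdk4 and Cdk6, was at 172, 133 and 166 CPM in the controls and at 158, 81.8 and 89.6 CPM in the knockdown samples. Knockdown replicate 1 lay among the controls and the other 2 below them, and the log2 fold change was -0.51 ± 0.25 (edgeR, adjusted p = 0.444). Without knockdown replicate 1 it was -0.86 (edgeR, adjusted p = 0.0258), and its adjusted p over all alternatives ran from 0.0258 to 0.775. Cdkn1a (p21) was at 97.0, 112 and 146 CPM against 135, 122 and 98.1 CPM, with equal means of 118 CPM. Cdkn1b (p27) was at 50.3, 50.6 and 53.7 CPM against 46.0, 64.5 and 46.1 CPM, with means of 51.5 ± 1.86 and 52.2 ± 10.7 CPM (SD, n = 3 each). Both inhibitors had log2 fold changes within 0.02 of 0, with standard errors of 0.19 and 0.18.

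Levels were also compared per kilobase of exon, with the exons of all annotated transcripts of a gene merged. That length can exceed the length of the main transcript, so the ranking depends on the annotation. Ccnd2 had the highest level of the 38 genes on this scale. It was at 88.2 ± 4.37 CPM per kb in the controls and 114 ± 18.2 CPM per kb in the knockdown samples (SD, n = 3). Cdkn2c followed at 58.4 ± 7.76 and 40.9 ± 15.7 CPM per kb, and Cdkn1a at 33.3 ± 7.12 and 33.3 ± 5.21 CPM per kb. Cdk4 came next with 19.9 ± 2.46 and 25.2 ± 3.38 CPM per kb. The gaps between these 4 genes exceeded their SDs in the controls, but Cdkn2c and Cdkn1a did not differ beyond their spread in the knockdown samples. Cdkn1b, Pcna and Ccnd1 lay at 11.3, 11.3 and 9.50 CPM per kb in the controls and did not differ beyond their spread. Ccna2 was at 2.41 ± 2.13 and 0.781 ± 0.606 CPM per kb.

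Among 118 other cell cycle genes listed by name, 102 passed the filter and 0 had an adjusted p of 0.1 or less with edgeR or limma-voom, beside 1.22% and 1.01% of all genes. An unadjusted p under 0.05 was reached by 11 of the 102 with edgeR and 10 with limma-voom, where 12.4% and 11.7% of all genes reached it, so these shares were no larger than the background. DESeq2 called 2 of 117 (Btg2 and Rbl2, beside 3.20% of all genes) and had 6 at an unadjusted p under 0.05, beside 10.2%. Fold changes were below 0 for 69 and above for 33, with a median log2 fold change of -0.18. Of the 102, 14 had groups that did not overlap (3 higher and 11 lower), where 18.5% of all genes tested did so (8.96% higher and 9.55% lower).

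The 34 tested genes of the other mitosis list had fold changes with a median of -0.30 (log2), with 27 below 0 and 0 called. Of the 40 listed, knockdown replicate 3 was the highest of its group for 38 and scrambled control replicate 1 for 33. Smc4, a condensin subunit, had the smallest p of this list, with 46.5, 39.7 and 48.9 CPM in the controls and 27.5, 36.8 and 36.9 CPM in the knockdown samples. It was lower in 3 of 3 knockdown samples, with a log2 fold change of -0.42 ± 0.18 (edgeR, adjusted p = 0.386). Pttg1 (securin) was at 2.24, 2.98 and 3.61 CPM against 0.863, 1.05 and 2.13 CPM, with the groups apart and a log2 fold change of -1.06. Bub3, of the spindle checkpoint, was at 31.1, 28.3 and 22.2 CPM against 17.3, 21.2 and 23.3 CPM, with overlapping groups and a log2 fold change of -0.40.

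The 38 tested genes of the other replication list showed a median of -0.20 (log2 fold change), with 24 below 0, 14 above and 0 called. Gins4, a subunit of the replicative helicase, was at 23.9, 27.3 and 27.2 CPM in the controls and 13.4, 15.4 and 18.3 CPM in the knockdown samples. The groups were apart and the log2 fold change was -0.73 ± 0.19 (edgeR, adjusted p = 0.152). Gins4 also lies on chromosome 8, and with chromosome medians removed its log2 fold change was -0.34 (edgeR, adjusted p = 0.621). Rfc2, of the clamp loader, was at 8.50, 6.95 and 8.09 CPM against 11.1, 10.6 and 13.9 CPM. Cdc7, the kinase that fires origins, was at 4.17, 1.99 and 2.75 CPM against 5.61, 4.91 and 6.17 CPM. Both lay higher in 3 of 3 knockdown samples, with log2 fold changes of 0.59 ± 0.24 and 0.84 ± 0.36 (edgeR, adjusted p = 0.350 and 0.380).

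The Rb pathway, quiescence and checkpoint list had 30 tested genes, 18 below 0 and 12 above, with a median log2 fold change of -0.06 and 0 called. Rbl2 (p130), the retinoblastoma protein of the DREAM complex in resting cells, was at 54.0, 65.0 and 54.4 CPM in the controls and 40.8, 33.5 and 37.1 CPM in the knockdown samples. E2f4, the repressor E2F that pairs with it, was at 29.8, 27.8 and 29.8 CPM against 20.4, 21.3 and 18.1 CPM. Both were lower in 3 of 3 knockdown samples with little spread, at log2 fold changes of -0.63 ± 0.16 and -0.55 ± 0.17 (edgeR, adjusted p = 0.140 and 0.209). Rbl2 and E2f4 lie on chromosome 8, as does Tfdp1, the partner of E2F factors, which was singled out after its values were seen and had a log2 fold change of -0.40. With chromosome medians removed the 3 genes were at -0.24, -0.16 and -0.01. Btg2, an antiproliferative gene induced by p53 and on chromosome 1, was at 234, 183 and 207 CPM against 47.0, 144 and 77.7 CPM. The groups were apart, with a log2 fold change of -1.21 ± 0.34 (edgeR, adjusted p = 0.169). With no filter on low counts edgeR called Btg2 (adjusted p = 0.0911), beside 1.38% of all genes. DESeq2 gave Btg2 an adjusted p of 0.0143 and Rbl2 one of 0.0961, and the adjusted p over all alternatives ran from 0.0143 to 0.415 for Btg2 and from 0.0646 to 0.667 for Rbl2.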

How the data were processed

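Total RNA from 6 samples (3 per group) was sequenced as ribosomal RNA-depleted stranded libraries. Per the submitters' processing notes, the authors used Trim Galore 0.6.7, STAR 2.7.10a, Salmon 1.9.0 and GRCm38, and the deposited values are estimated counts per gene, not normalized. The annotation release, the strand setting and the summing of transcripts to genes are not given in the sources used here. Of 45706 genes, 26300 had no count. Values that missed a whole number by over 1e-06 made up 3.97% to 7.78% of a library, and each was rounded.

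In R 4.3.3, counts were filtered with filterByExpr, scaled by TMM and tested with edgeR 4.0.16 (glmQLFit with legacy=FALSE, glmQLFTest) on condition alone, with Benjamini-Hochberg adjustment over all 11440 genes tested. Genes with an adjusted p up to 0.1 were called. The SE is the log2 fold change divided by the root of F. With 3 against 3, an exact permutation test cannot go below 0.1 and was not used. The replicates are described as biological, but whether they came from separate transductions or from 1 stable culture is not given in the sources used here, so SEs and p-values measure only the spread between these samples. The fitting code was tested on simulated data. The floor of 3 counts covers counting error only, whereas the SE carries the spread between samples. DESeq2 1.42.0, limma 3.58.1 and the other alternatives (15 set in advance, 1 added after seeing the data) are described with the closing results.

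The 38 genes and all lists were chosen with earlier results of these data known, so no list was tested. Of the 38 genes, values in every sample are given for any called, any at an unadjusted p under 0.05, any with groups apart, and the 3 highest and 3 most changed of each role. Of each list of other cell cycle genes, the called genes or, with none, the 3 with the smallest p are named. Positions, lengths and overlaps came from a GENCODE annotation of GRCm38 that held 11402 of the genes tested, promoter windows from RefSeq (GRCm38.p6). Same-numbered samples did not deviate together (correlations -0.14, 0.08 and -0.03), so samples were not paired.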

Additional observations from a re-analysis of the deposited data

How the results depend on the processing

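Under the alternatives the count of all genes at an adjusted p of 0.1 or less was 268 with no filter on low counts, 430 with DESeq2 and 71 with chromosome medians removed, against 140, and 12 to 696 with single samples left out. The replicate number as a block gave 39 calls and 0 among the 38 cell cycle genes, and the samples are not paired. Cell cycle genes called numbered 0 to 2 with single samples left out (Ccnd1 and Cdkn2c, both without knockdown replicate 1, where 5.94% of all genes were called), and 0 in the other alternatives. The other cell cycle genes gave 1 call with no filter (Btg2, beside 1.38% of all genes), 2 with DESeq2 (beside 3.20%) and 0 to 2 with single samples left out, 2 of them without knockdown replicate 1 (beside 5.94%) and 1 without knockdown replicate 2 (beside 0.326%). Library sizes alone, without TMM, moved the median log2 fold change of all genes to 0.37 and those of the S phase, mitotic, G1 and inhibitor genes to 0.14, -0.14, 0.53 and 0.36, so that the S phase and inhibitor medians turned. Relative to the shift these were -0.23, -0.51, 0.16 and -0.0082. The G1 median turned to -0.03 with limma-voom. Library sizes taken without ribosomal RNA genes gave medians of -0.179 for S phase genes and -0.465 for mitotic genes. The alternative added after seeing the data was edgeR's earlier quasi-likelihood estimate, which gave -0.193 and -0.467. Single samples left out gave medians of -1.44 to 0.44 for mitotic genes and -0.52 to 0.10 for S phase genes, and -0.92 to -0.52 for Rbms1. The cause of these moves was not tested.

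Signs of small log2 fold changes turned as well. With library sizes alone they were 0.32 for Cdk1, 0.35 for Cdk6, 0.36 for Cdkn1a, 0.14 for Pcna and 0.33 for Rrm1. Cdk1 was at 0.00041 with no filter, 0.0060 with DESeq2 and 0.0058 with the replicate block. Cdkn1a was at 0.0060 with RLE size factors, 0.016 with no filter, 0.00087 with a filter of 1 CPM in 3 samples, 0.011 with DESeq2, 0.010 with limma-voom, 0.0076 with the replicate block and 0.079 with chromosome medians removed. Cdkn1b was at -0.0038 with limma-voom, -0.0035 with the replicate block and -0.16 with chromosome medians removed, where Mcm7 was at -0.0041 and Rrm1 at 0.012. Ccnd1 was at -0.075 with limma-voom. With single samples left out, log2 fold changes ran from -0.0099 to 1.10 for Ccnd1, -0.53 to 0.51 for Cdk1, -0.18 to 0.036 for Cdk6, -0.12 to 0.18 for Cdkn1a, -0.15 to 0.11 for Cdkn1b, -1.44 to 0.55 for Cenpf, -0.92 to 0.43 for Mcm3, -0.078 to 0.13 for Mcm7, -1.52 to 0.15 for Mki67, -0.38 to 0.10 for Pcna, -0.35 to 0.17 for Rrm1, -1.24 to 0.085 for Rrm2, -1.39 to 0.19 for Top2a and -2.49 to -0.53 for Ccna2. Depth was lowest in scrambled control replicate 2, where each mitotic gene rested on 1 to 21 counts.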
